A study of Mus musculus and Homo sapiens with 22 samples.

Results

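Expression of nSR100 in human 293T cells was described from 2 of the 22 samples of the series, 1 polyA RNA-seq library of a line labelled as overexpressing nSR100 and 1 library of a line labelled control. 293T is an established human embryonic kidney line. All genes with at least 1 RPKM (reads relative to the length of the gene and the total of the library) and at least 50 reads in one of the 2 files were taken, which gave 12595 of the 19847 genes in the 293T files. Of these, 11706 passed in both files, 366 in the nSR100 file alone and 523 in the control file alone. The line was made with a doxycycline-inducible lentivirus carrying Flag-tagged nSR100, with 2 ug/mL puromycin for selection and 1 ug/mL doxycycline for 48 hours for induction. This text is attached to both samples, so the labels do not say whether the control carried the construct or received doxycycline. Differences due to nSR100, to doxycycline, to selection and to the 2 lines themselves cannot be told apart. With 1 library per group there is no replicate error, no test was made, and the counting intervals given below cover counting error only.

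nSR100 is a neuronal protein rich in serine and arginine that promotes the inclusion of neuronal exons, among them very short microexons. It binds near the 3′ splice site of its target exons and acts against repression by PTBP1, a polypyrimidine tract binding protein that keeps neuronal exons out of mRNA in most other cells. 293T cells express PTBP1, and the study's question concerned splicing. The files used here count reads per gene, so they show total expression and not the inclusion of exons.

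The 293T files name genes by human Ensembl identifier and pair none with a symbol. The name tables used here hold mouse identifiers only, so 0 of the 19847 identifiers could be matched. This is a limit of those name tables and not of the identifiers. Gene families, cell type markers of 293T and pathway lists were therefore not analysed here. Genes are described as groups by level, size of change and length, and 4 identifiers are given.

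The gene set as the marker of nSR100 expression, ENSG00000139767, had the largest increase of all 12595 genes. It had 9 reads in the control library and 65917 in the nSR100 library, or 0.00959 and 71.1 RPKM. Per total reads it was 7409-fold higher under nSR100, with a 95% exact binomial counting interval of 3903 to 16205. The control library thus held almost no reads of this gene and the nSR100 library many, in the direction of its label. The reads do not separate transcripts of the lentiviral construct from those of the cells' own gene. In the mouse neuroblastoma line N2A of the same series the mouse gene Srrm4, which encodes nSR100, ranged from 4.51 to 12.03 RPKM in the 5 files without a hairpin against it and was 2.5 RPKM in the file with one. The human and mouse files were scaled separately and differ in gene models, so these levels are set side by side only.

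On the scale of log2(RPKM + 1), 549 genes were 2-fold or more higher in the nSR100 library and 733 were 2-fold or more lower. These are 4.36% and 5.82% of the genes compared, or 10.2% in all. The median difference was 0.04, the lower and upper quartiles were -0.35 and 0.38, and the central 95% lay between -1.36 and 1.19. A total of 6670 genes were above 0 and 5925 below. Large decreases outnumbered large increases at every step. At 4-fold or more 38 genes were higher and 84 lower, at 8-fold or more 6 and 17, and at 16-fold or more 1 and 4. The single increase of that size on this scale was the marker itself. The added 1 RPKM understates the change of low genes, so by the ratio of reads further genes changed 16-fold or more. Counting error was small beside these differences. For 529 of the 549 higher genes and 723 of the 733 lower genes the counting interval of the ratio of reads lay wholly past 2-fold. The same reads had served to call these genes. The ratio of reads also lies further from 1 than that of RPKM + 1, which favours such counts.

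**Figure D1:**
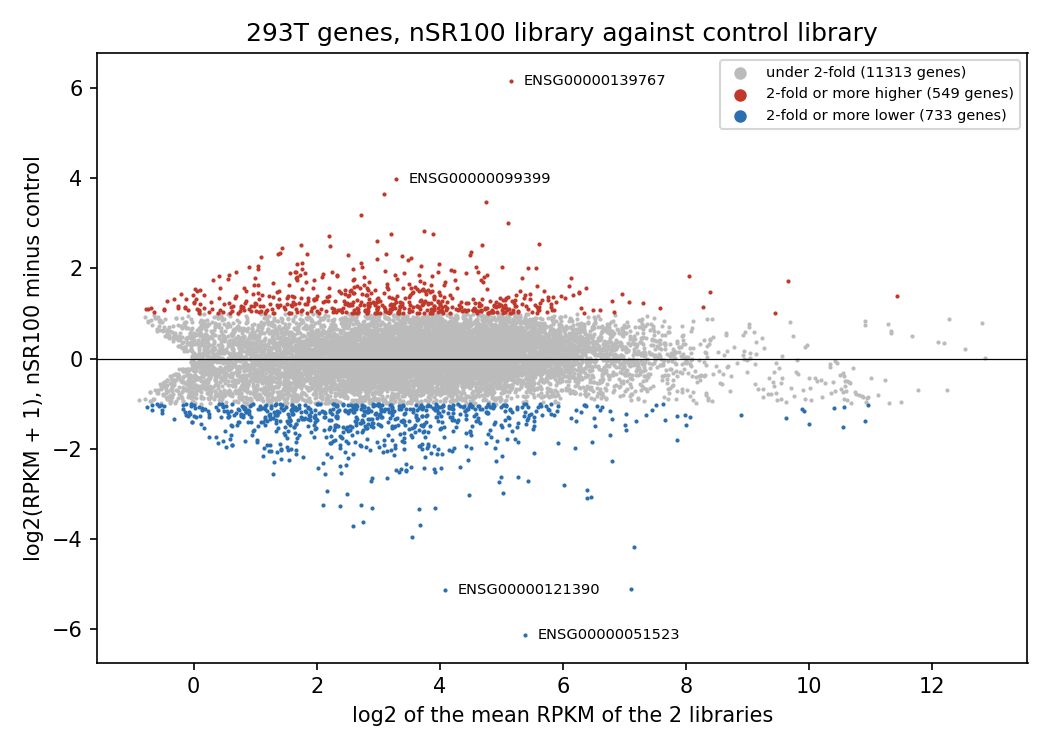
Each point is 1 of the 12595 genes, with the log2 of its mean RPKM in the 2 libraries on the x axis and its difference in log2(RPKM + 1), nSR100 minus control, on the y axis. The 549 red points are 2-fold or more higher and the 733 blue points 2-fold or more lower, with ENSG00000139767 at the top at 6.16 and ENSG00000051523 at the bottom at -6.12.

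Each 293T group had a single library, so how far libraries of one group differ is not known for these cells. The one such pair among the RNA-seq files used here was a pair of N2A libraries transfected with a control siRNA pool (a and b). In the labels, letter a is shared with a U2af65 siRNA library and letter b with a Ptbp1 siRNA library. By the same rule 147 of the 11118 genes of the control pair (1.32%) were 2-fold or more apart. In library b 62 genes were higher (0.558%) and 85 lower (0.765%), and the median difference over all 11118 was 0.15. N2A cells with a stable hairpin against nSR100 differed from those with a hairpin against GFP at 81 of 11649 genes (0.695%), 20 higher (0.172%) and 61 lower (0.524%). Over genes the SD of the difference was 0.64 in 293T, 0.34 for the control siRNA pair and 0.30 for the hairpin files. The 2 libraries of 293T thus lay further apart than either pair of N2A files. The pairs differ in species, cell line, depth and the way the cells were made. Each hairpin file also combines 2 runs, while the other files hold single libraries. The difference between the pairs was not tested. Total reads in genes were 111941702 in the 293T control and 110652253 in the nSR100 library, and in these 4 N2A files between 60220620 and 77138004.

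**Figure D2:**
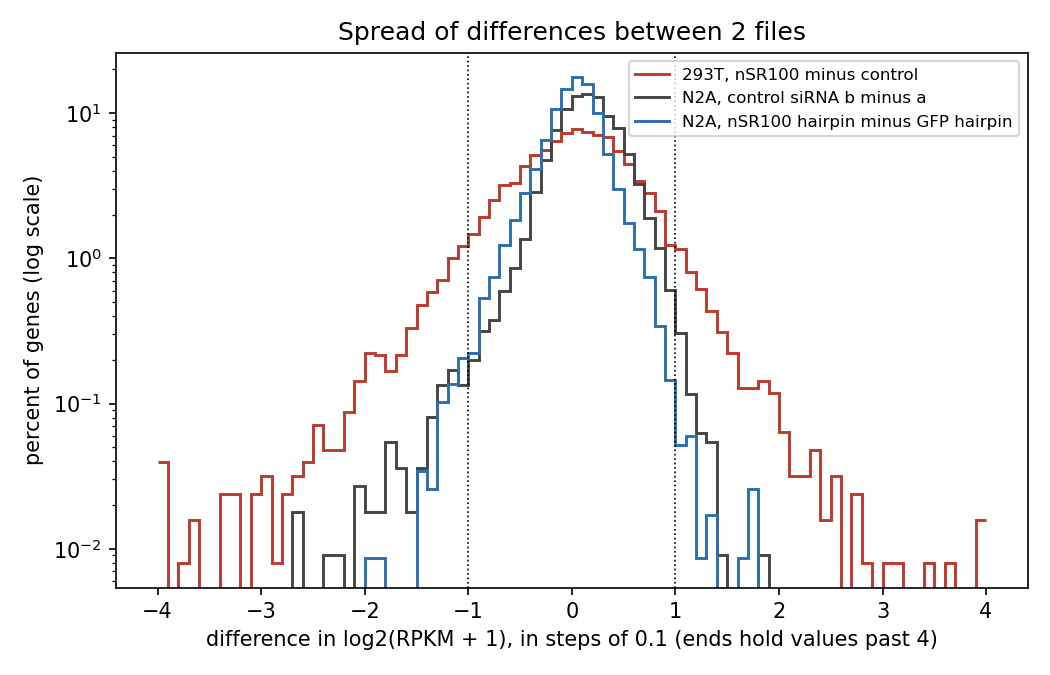
The lines give the percent of genes (y axis, log scale) at each difference in log2(RPKM + 1) (x axis, steps of 0.1) for 3 pairs of files, with dotted lines at 2-fold. The red line of 293T is the widest, with 10.2% of genes past 2-fold against 1.32% for the pair of N2A control siRNA libraries (black) and 0.695% for the N2A hairpin files (blue).

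The gap between 293T and N2A was present at every level of expression. Among genes with a mean of 10 to 50 RPKM, 8.24% of 5620 genes were 2-fold or more apart in 293T, with 221 higher and 242 lower. In the same range the share was 0.973% of 5139 genes for the control siRNA pair and 0.728% of 5630 genes for the hairpin files. Among 293T genes with a mean of 2 to 5 RPKM, 104 were higher and 174 lower, or 15.1% of 1839. At a mean of 50 RPKM or more 35 were higher and 58 lower, or 5.96% of 1560. The added 1 RPKM understates the change of low genes, so the shares of the lowest levels are not comparable with those of the higher ones.

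**Figure D3:**
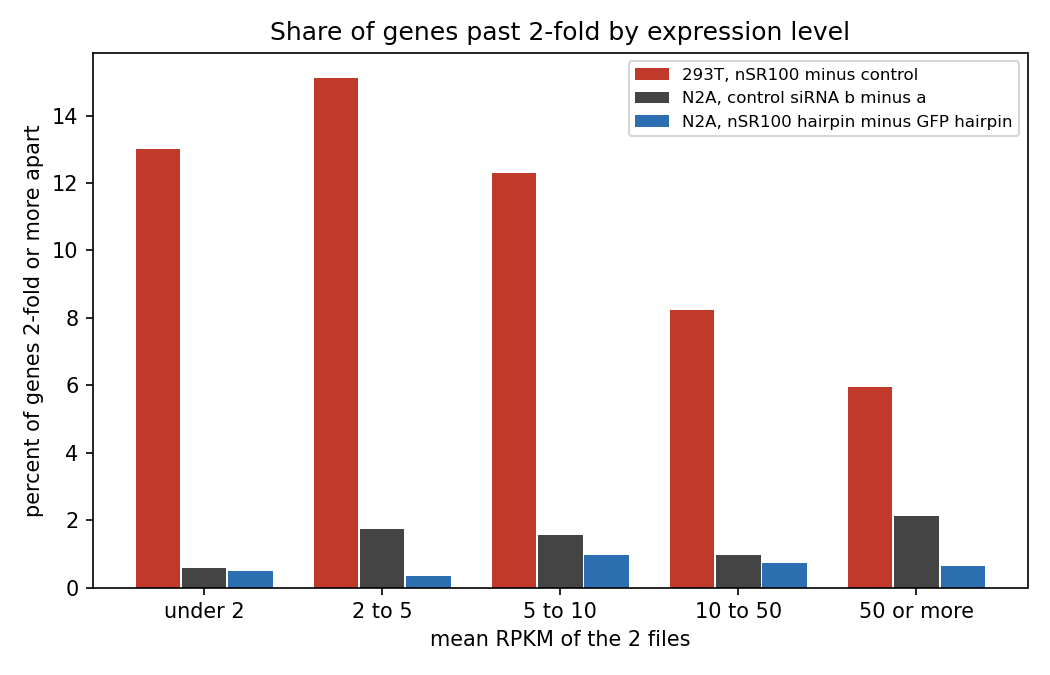
Bars give the percent of genes 2-fold or more apart (y axis) by the mean RPKM of the 2 files (x axis) for 293T (red), the pair of N2A control siRNA libraries (black) and the N2A hairpin files (blue). The red bars run from 5.96% to 15.1% and exceed the others in each of the 5 ranges of level.

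Genes that were low in the control made up part of the increases. Of the 549 higher genes 108 were under 1 RPKM in the control, 148 were at 10 RPKM or more and 7 at 100 RPKM or more. These are 19.7%, 27.0% and 1.28% of the higher genes, against 2.72%, 55.9% and 5.08% of all 12595 genes. The levels from which the lower genes started were near those of all genes. Of the 733, 396 were at 10 RPKM or more in the control (54.0%) and 48 at 100 RPKM or more (6.55%). These classes are a description, since the control's own level also enters the difference and a gene under 1 RPKM in the control cannot be 2-fold lower on this scale. In addition, all 343 genes under 1 RPKM in the control passed the filter only through the nSR100 library. The filter thus favours increases among them, and their share of the higher genes is no finding about low genes. ENSG00000099399, the largest increase after the marker, had 47 reads in the control and 3240 with nSR100, or 0.276 and 19.2 RPKM. It was 69.7-fold higher per total reads (counting interval 52.3 to 95.1).

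The 2 largest decreases left few or no reads in the nSR100 library, while the third, from 64926 reads in the control, left 1624. ENSG00000051523 had 5962 reads in the control and 15 with nSR100, or 83.5 and 0.212 RPKM, and a difference of -6.12. It was 393-fold lower per total reads (counting interval 238 to 702). ENSG00000121390 had 8994 reads in the control, or 34.1 RPKM, and 0 with nSR100. With 3 reads put in place of the 0 it was 2963-fold lower, and its 95% exact binomial counting interval reached down to 2410-fold lower. The order of these decreases depended on the pseudocount. With 0.1 in place of 1, ENSG00000121390 stood at -8.42 and ENSG00000051523 at -8.06, and by the ratio of reads with a floor of 3 reads the largest decrease was that of another gene, with 9610 reads in the control and 0 with nSR100. In all, 6 of the 12595 genes had no read in the nSR100 library, with 650 to 9610 reads in the control, and 4 of them had more than 1000 there. No gene that passed the filter had 0 reads in the control. In the control siRNA pair and in the hairpin files, 0 genes that passed had no read in one of the files. The positions of these 6 genes were not analysed here, and from reads per gene a gene that is not transcribed cannot be told apart from one that is missing from the line.

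Genes above 500 RPKM, a level chosen after the values were seen, were mostly lower in the nSR100 library, while the 1560 genes at a mean of 50 RPKM or more had a median difference of 0.07. The gene with the most reads in the control had 1633026 there and 810901 with nSR100, or 3347 and 1681 RPKM, a difference of -0.99 on the log2 scale. The next had 1244972 and 1234308 reads and a difference of 0.00. The third and the fourth had differences of -0.74 and -0.70, and the fifth one of 0.37. Of the 112 genes with a mean of 500 RPKM or more, 82 were below 0 and 30 above. Their median was -0.49, against 0.04 over all 12595 genes. The share past 2-fold, 10.7%, was near the 10.2% of all genes. Of the 112 genes 9 were 2-fold or more lower (8.04%, against 5.82% of all genes), 3 were 2-fold or more higher (2.68%, against 4.36%), and 46 were lower by between 0.5 and 1 on the log2 scale. The N2A control pair also differed at this level, with 93 of 111 genes below 0 and a median of -0.21 for library b minus a. The hairpin files had a median of -0.03 over 102 genes. The 10 genes with the most reads held 6.03% of reads in the 293T control and 5.52% with nSR100.

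The share of genes 2-fold or more apart was higher among short than among long genes, with no test of the difference. Effective length is the length that links a gene's reads to its RPKM in the files. In the shortest length quartile, up to 1742 bases, 167 genes were higher and 213 lower, or 12.1% of 3149. In the longest length quartile, from 4262 bases, 108 were higher and 178 lower, or 9.08% of 3149. The second and the third length quartile had 10.7% and 8.83%, so the lowest share was in the third. The median difference was 0.04 in the shortest length quartile and 0.00 in the longest. Of the 12595 genes, 42 had an effective length under 100 bases, and 7 of these were 2-fold or more apart, which is 16.7% against 10.2% of all genes.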

How the data were processed

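The members and lists were chosen with earlier results of these data known. The deposited files, 1 per library for 293T, give a read count per Ensembl gene and the authors' RPKM, without headers. Per gene, RPKM was proportional to reads over the file's total reads, with the same length in both 293T files. The N2A files serve as a yardstick, and each hairpin file combines 2 runs, per the labels. Blank counts were read as 0, and 354 human genes without an RPKM were left out. The submitters' processing notes list 2 builds (hg19, mm9) and 2 tools (bedtools 2.17.0, Bowtie) without saying how each was used. How reads were counted, with which annotation and strand setting, is not given in the sources used here, so overlapping and near-identical genes are uncertain.

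Differences were taken on log2(RPKM + 1) and called at 1 or more, with no test. Counting intervals are exact binomial at 95%, and the floor is 3 reads. The rule for named genes took the marker, the 15 largest changes each way, members of fixed gene lists, and set genes such as PTBP1 whatever their difference. As identifiers are not paired with symbols, only the marker, the next largest increase and the 2 largest decreases are given. TMM factors came from edgeR 4.0.16 (R 4.3.3), other values from Python 3.11.15 with scipy 1.17.1. The calculation was tested on simulated data.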

Additional observations from a re-analysis of the deposited data

Results flagged for a closer look

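The 354 genes of the 293T files without an RPKM entered no comparison. They held 1024 reads in the nSR100 library, in 47 genes, and 722 reads in the control library, in 40 genes. The total is above that of the control, and the difference was not tested.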

How the results depend on the processing

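The counts of genes 2-fold or more apart depended on the pseudocount. With 0.1 in place of 1 RPKM, 814 genes were higher and 1155 lower. On the ratio of reads with a floor of 3 reads, 864 were higher and 1213 lower. These settings hold all of the 549 and 733 genes. With TMM factors 458 were higher and 838 lower, and with the median difference set to 0 the counts were 489 and 794. Increases were 42.8% of the genes past 2-fold as reported and 35.3% with TMM factors (1.02604 for nSR100 and 0.974617 for the control). Both counts stayed within 1.5 times those reported under the stricter and looser filters on low values and with totals taken without the marker gene. With a pseudocount of 0.1 the marker's difference was 9.34, and those of ENSG00000099399, ENSG00000051523 and ENSG00000121390 were 5.68, -8.06 and -8.42, so that the largest decreases changed order. For the N2A pairs, centring on the median was added after the data were seen and gave 142 and 87 genes past 2-fold. Medians of gene lists were not run, since the identifiers were not paired with symbols. No paired analysis was possible because each 293T group has 1 library. Each gene had at least 50 reads in one file, but the other file could hold few. The marker and ENSG00000099399 had 9 and 47 reads in the control. ENSG00000051523 and ENSG00000121390 had 15 and 0 in the nSR100 library. Depth thus limits the ratios of these identifiers, and the lack of replicates limits all of the values given.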
